A study of Rattus norvegicus with 6 samples.

Results

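Genes that bind metals and handle iron were examined in poly(A)-selected RNA of rat striatum, a part of the basal ganglia, where manganese is known to accumulate. Of 6 Ensembl gene IDs named as metallothioneins Mt1, Mt2A and Mt3 and as the iron genes Tfrc, Fth1 and Cp, those whose row lay on the named chromosome were kept, which left 5 of the 32552 annotated genes. The ID given for Mt1 lay on chromosome 17 and not on 19, so Mt1 was not measured by it. All samples came from male Sprague-Dawley rats that received intraperitoneal injections during 15 days: the controls (libraries 1, 2 and 4) received 0.9% NaCl, and the Mn-exposed group (libraries 13, 14 and 17) received MnCl2 at 25 mg/kg, with no statement of whether that dose was daily or cumulative. The age of the rats is not given in the labels, and neither is whether each library came from its own rat, so tests measure the spread between these 3 and 3 libraries, which may in part be technical. Total counts were between 21754379 and 32569760 per library.

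Metallothioneins are small proteins rich in cysteine that bind zinc, copper and other metals. The Mt1 and Mt2 genes are induced by zinc and cadmium through the transcription factor MTF-1, which binds metal response elements in their promoters, and in the brain they are mainly expressed in astrocytes. Mt3 is the form enriched in the brain and is known to respond little to metals. Iron enters cells on transferrin through the receptor Tfrc, is stored in ferritin, of which Fth1 is the heavy chain with ferroxidase activity, and is oxidised by ceruloplasmin (Cp) as it leaves. Transferrin can also carry trivalent manganese. When iron is scarce, iron regulatory proteins stabilise Tfrc mRNA and block translation of ferritin mRNA, so the level of Fth1 mRNA is not the level of the protein.

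The promoters of both measured metallothioneins are printed here. Metal response elements are the route by which zinc and cadmium are known to induce the Mt1 and Mt2 genes. Sequences are those of RefSeq on GRCr8, 250 bases up to the annotated start, 5′ to 3′ on the gene's strand, and capitals mark matches to the 7-base core TGCACNC or TGCGCNC on either strand. The Mt2A window is chr19:10838709-10838958 and the Mt3 window is chr19:10856081-10856330, both on the minus strand.
Mt2A: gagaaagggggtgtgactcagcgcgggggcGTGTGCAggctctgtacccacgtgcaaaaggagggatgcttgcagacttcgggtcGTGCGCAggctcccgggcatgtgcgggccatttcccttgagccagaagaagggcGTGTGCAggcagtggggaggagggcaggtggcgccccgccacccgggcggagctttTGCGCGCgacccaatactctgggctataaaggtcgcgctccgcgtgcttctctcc
Mt3: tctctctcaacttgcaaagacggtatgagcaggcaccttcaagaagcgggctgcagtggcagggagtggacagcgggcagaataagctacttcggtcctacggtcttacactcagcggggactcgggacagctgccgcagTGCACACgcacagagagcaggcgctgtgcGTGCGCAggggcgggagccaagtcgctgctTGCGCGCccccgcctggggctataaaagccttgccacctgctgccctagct

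The Mt2A window held 4 separate matches and the Mt3 window 3, and the windows of Tfrc and Cp held 2 and 0. Fth1 had no window to search. In Tfrc, matches on opposite strands that overlapped were counted as 1. The windows of Mt1 and Mt4, searched in the same way, held 6 and 1. Among all 33465 promoter windows searched, 20.568% held at least 1 separate match, 3.989% at least 2, 0.732% at least 3 and 0.128% at least 4. These letters are rich in G and C, as are the Mt2A (66.0%), Mt3 (62.8%) and Tfrc (64.8%) windows against a median of 51.2%. Among the 8454 windows with at least 60% GC, 39.591% held at least 1 match, 10.859% at least 2, 2.117% at least 3 and 0.39% at least 4. A match is a description of the letters and says nothing on binding in these samples.

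Neither metallothionein, nor Tfrc, nor Cp differed between Mn-exposed and control striatum beyond the spread between libraries. Of the 5 genes, 4 passed the filter on low counts and were tested, and Fth1 was listed at 0 in every library. With edgeR's quasi-likelihood test and Benjamini-Hochberg adjustment over 15252 genes, 0 of the 4 were called at 0.05, where 0.0% of all genes were. At an unadjusted p under 0.05 the count was again 0 of 4, against 7.47% of all genes tested. DESeq2 called 0 of the 4, against 0.403% of the 22856 genes it tested, and limma-voom called 0 among all genes. In 0 of the 4 did the CPM of the groups stand apart without overlap, which was the case for 12.1% of all genes tested. The median absolute log2 fold change was 0.11 in the 4 genes and 0.17 over all genes tested. In bulk tissue, fewer cells of a type and less RNA per cell cannot be told apart.

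Mt3 was by far the most abundant of the measured genes per length. Its row, ENSRNOG00000018958, lies on chromosome 19, minus strand, between 11324698 and 11326139 (Rnor_6.0), with 3 exons and 413 exonic bases. The 3 controls (1, 2, 4) had 6227, 6554 and 6637 counts, and the exposed libraries (13, 14, 17) had 5595, 5674 and 5813. As CPM (counts relative to library size, after TMM scaling), the level was 295, 206 and 276 in the controls and 255, 217 and 196 in the Mn-exposed libraries. Control 1 and 4 were the highest and Mn-exposed 17 the lowest, and the groups overlapped because control 2 lay below Mn-exposed 13 and 14. Mean levels (± SD, n = 3 per group) were 259 ± 46.9 CPM for controls and 223 ± 30.0 CPM after Mn. The log2 fold change was -0.22 with a standard error of 0.18 (edgeR, adjusted p = 0.747), and its 95% interval ran from -0.64 to 0.21, which is 0.641-fold to 1.16-fold.

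Mt2A stood at a small part of the Mt3 level. It is ENSRNOG00000043098, on chromosome 19, minus strand, between 11307967 and 11308740, with 3 exons and 382 exonic bases, and 15957 bases separate it from Mt3. The 3 controls (1, 2, 4) had 372, 458 and 591 counts, and the exposed libraries (13, 14, 17) had 436, 452 and 381. This gave 17.6, 14.4 and 24.6 CPM in the controls and 19.9, 17.3 and 12.9 CPM in the Mn-exposed libraries. Control 4 was the highest library and Mn-exposed 17 the lowest, with the other 4 between them in mixed order. Mean levels (± SD, n = 3 per group) were 18.9 ± 5.19 CPM for controls and 16.7 ± 3.56 CPM after Mn. The log2 fold change was -0.18 (SE 0.24, edgeR adjusted p = 0.84), with an interval of -0.75 to 0.39. With all 6 libraries, a rise of Mt2A to more than 1.31 times the control level lies outside this interval. Without control 4 the estimate turned to 0.06 (SE 0.23), so that limit depends on control 4 and does not exclude a larger rise.

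**Figure D1:**
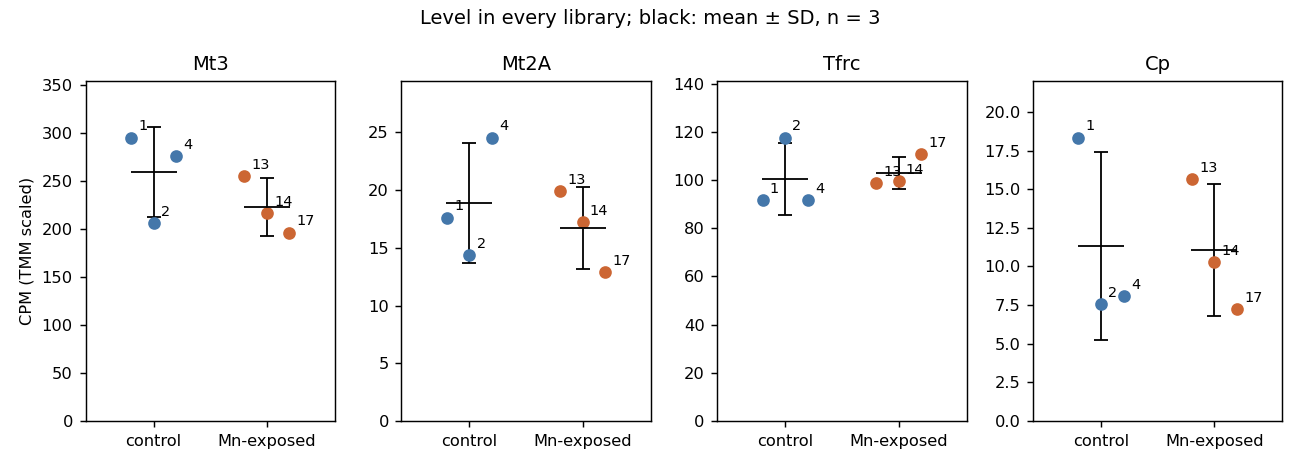
CPM (TMM scaled, linear axis from 0) of Mt3, Mt2A, Tfrc and Cp in each library, with control libraries in blue and Mn-exposed libraries in orange, numbered as in the labels; black marks give the mean ± SD (n = 3 each). The groups overlap in all 4 genes, and Cp separates control 1 (18.3) and Mn-exposed 13 (15.7) from the other libraries.

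Within a library the 2 metallothioneins can be compared without any scaling between libraries. Mt3 had 15.5, 13.2 and 10.4 times the Mt2A count per exonic base across controls 1, 2 and 4, and the exposed libraries 13, 14 and 17 had 11.9, 11.6 and 14.1 times. The mean ratio (± SD, n = 3 per group) was 13.0 ± 2.55 for controls and 12.5 ± 1.38 after Mn, so with all 6 libraries the groups differed by less than either spread. With 1 library left out, the difference of -0.505 lay anywhere between -1.83 (without control 4) and 0.719 (without control 1), and it was -1.29 without Mn-exposed 17, -0.174 without Mn-exposed 13 and -0.0446 without Mn-exposed 14. In all 6 libraries Mt3 exceeded Mt2A by at least 10.4 times per base.

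The course of the 2 metallothioneins over the libraries was alike in part. Likeness was measured as the root mean square difference between mean-centred log2 CPM over the 6 libraries, a description with no test. Mt3 lay 0.19 from Mt2A, rank 81 among the 15251 other genes, with control 4 high and control 2 and Mn-exposed 17 low in both. They parted in control 1, which was 0.31 above the mean for Mt3 and 0.021 above it for Mt2A. Both genes have under 500 exonic bases, and the part of length in their likeness was not tested. Counted from Mt3, whose own swings were smaller, Mt2A had rank 1991. The gene nearest to Mt2A was ENSRNOG00000023269 on chromosome 13, at a distance of 0.112, but its level was only 0.252 to 0.54 CPM. That gene is not named in the files.

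Tfrc, the transferrin receptor, varied least. It is ENSRNOG00000001766, on chromosome 11, minus strand, between 71397383 and 71419223, with 19 exons and 4787 exonic bases. Controls 1, 2 and 4 had 1936, 3742 and 2205 counts, and the exposed libraries 13, 14 and 17 had 2161, 2609 and 3277. Its level was 91.8, 118 and 91.6 CPM across these controls, and 98.7, 99.6 and 111 CPM across the exposed libraries. All 3 Mn-exposed libraries lay between the controls, above control 1 and 4 and below control 2. Mean levels (± SD, n = 3 per group) were 100.3 ± 15.0 CPM for controls and 103 ± 6.68 CPM after Mn. The log2 fold change was 0.04 (SE 0.14, edgeR adjusted p = 0.943). Its interval, the narrowest of the 4, ran from 0.82-fold to 1.29-fold.

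Tfrc and Mt3 stood in nearly opposite order over the libraries. Control 1, control 4 and Mn-exposed 13 were the 3 highest in Mt3 and the 3 lowest in Tfrc. These genes differ in length, and so did the libraries. The median deviation of the 696 genes with under 500 exonic bases from their mean log2 CPM was 0.11, 0.027 and 0.038 in control 1, control 4 and Mn-exposed 13, and -0.001, -0.084 and 0.004 in control 2, Mn-exposed 14 and Mn-exposed 17. For the 2330 genes of 3500 to 5000 bases it was -0.043, -0.026 and -0.015 in the first 3 libraries and 0.02, 0.047 and 0.037 in the last 3. The part of this length difference in the Mt3 and Tfrc values was not tested.

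Cp, the ferroxidase ceruloplasmin, varied most, and its variation did not follow treatment. It is ENSRNOG00000011913, on chromosome 2, plus strand, between 104744461 and 104799853, with 20 merged exons that hold 3792 bases, of which 0 lie in exons of another gene. The 3 controls (1, 2, 4) had 387, 240 and 194 counts, and the exposed libraries (13, 14, 17) had 343, 269 and 214. The CPM were 18.3, 7.54 and 8.06 in the controls and 15.7, 10.3 and 7.23 in the Mn-exposed libraries. Control 1 and Mn-exposed 13 were high and the other 4 lower, with a ratio of 2.54 between the highest and the lowest library. Mean levels (± SD, n = 3 per group) were 11.3 ± 6.09 CPM for controls and 11.1 ± 4.27 CPM after Mn. The log2 fold change was -0.03 (SE 0.42, edgeR adjusted p = 0.982), with an interval of 0.492-fold to 1.94-fold, so changes of nearly that size in either direction could not be told from none.

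Control 1 and Mn-exposed 13 carry the same number in their ID label. They also stood together at one end of the first principal component (of the 1000 genes that varied most), at -24.0 and -22.5. Controls 2 and 4 lay at -6.34 and -1.59, and Mn-exposed 14 and 17 at 34.1 and 20.4. Apart from Mn-exposed 13, the groups thus also stood apart on this component. With the ID number as a block, the standard error of Cp was 0.18 in place of 0.42, the log2 fold change was 0.02 and edgeR's adjusted p was 0.97. Without control 1 the Cp estimate was 0.50 (edgeR adjusted p = 0.763) and without Mn-exposed 13 it was -0.37 (adjusted p = 0.704). When both were left out it was 0.14 (adjusted p = 0.782). The Cp estimate was also positive without Mn-exposed 14 (0.03) and without Mn-exposed 17 (0.2). Its direction thus changed with which libraries were present, and not with control 1 and Mn-exposed 13 alone. Defining markers of cell types rich in Cp could not be looked up, and their part in its variation was not tested.

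**Figure D2:**
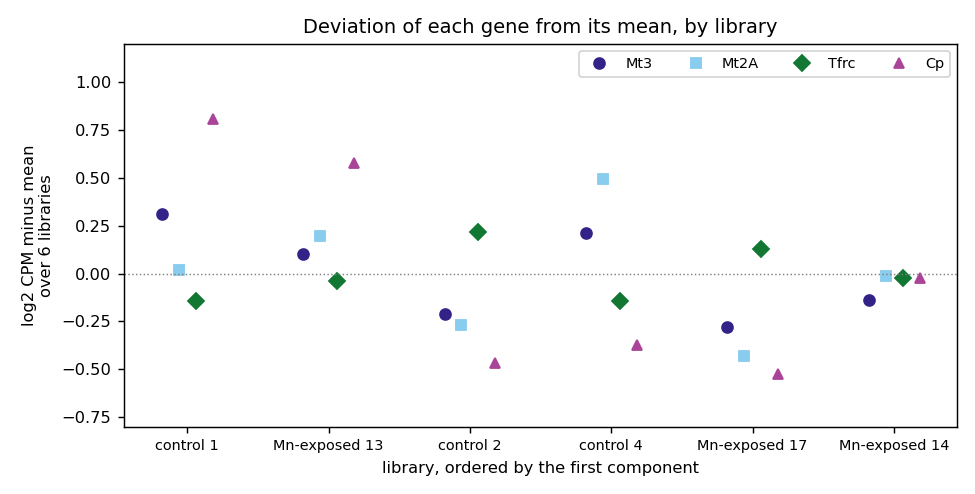
Deviation of log2 CPM from each gene's mean over the 6 libraries, on the vertical axis, for Mt3, Mt2A, Tfrc and Cp; libraries are ordered by their position on the first component. Cp is highest in control 1 (0.81) and Mn-exposed 13 (0.58), and Mt3 and Mt2A are lowest in Mn-exposed 17 (-0.28 and -0.43).

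Spread between libraries, rather than counting, set the precision for these genes. The coefficient of variation among controls was 53.8% for Cp, 27.5% for Mt2A, 18.1% for Mt3 and 14.9% for Tfrc. Counting error alone at their mean counts would give 6.04%, 4.72%, 1.28% and 1.94%. Among Mn-exposed libraries the coefficients were 38.6%, 21.3%, 13.5% and 6.49% in the same order, so Cp varied most and Tfrc least in both groups.

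Per exonic kilobase the order of levels was the same in all 6 libraries: Mt3, Mt2A, Tfrc, Cp. Mt3 ranged from 475 to 715 CPM per kb, which placed it at rank 61 of the 15252 genes tested. Mt2A ranged from 33.7 to 64.3 CPM per kb and Tfrc from 19.1 to 24.6. Cp ranged from 1.91 to 4.84 CPM per kb. No pair of neighbours in this order overlapped in range. How well such short transcripts as those of Mt2A and Mt3 were recovered in the libraries was not tested.

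**Figure D3:**
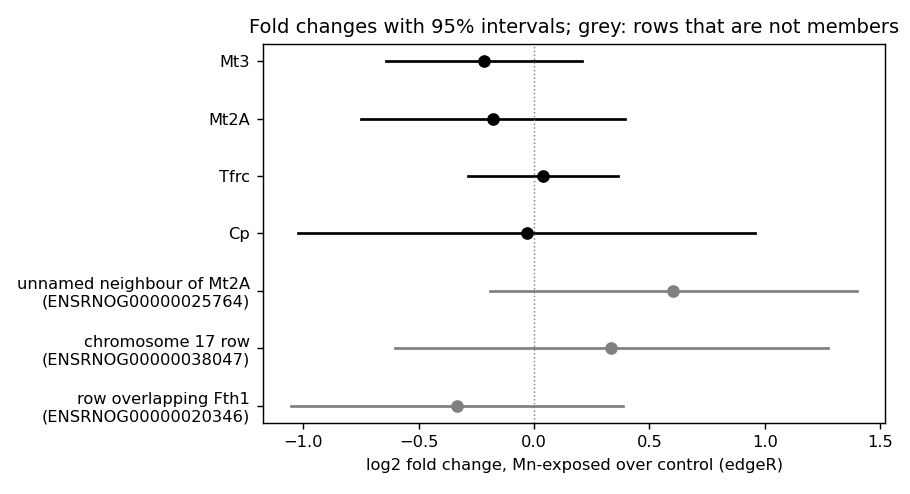
Log2 fold change of Mn-exposed over control from edgeR (points) with 95% intervals (lines), for the 4 measured genes in black and 3 rows that are not members in grey. Every interval includes 0, the narrowest being that of Tfrc (-0.29 to 0.36).

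Fth1, the ferritin heavy chain, could not be measured. Its row, ENSRNOG00000022619, lies on chromosome 1, plus strand, between 226030938 and 226033228, with 4 exons and 830 exonic bases, and it had 0 counts in each of the 6 libraries. All 830 exonic bases lie inside exons of ENSRNOG00000020346, a gene on the minus strand from 226030875 to 226049929. In the whole annotation, 116 genes have every exonic base inside exons of opposite-strand genes, and all 116 had 0 counts in all 6 libraries. Of the 277 genes with every exonic base inside exons of other genes on either strand, which include those 116, 276 had 0 counts too. Among the 30364 genes with no exonic base in another gene's exons, 30.339% did. The library kit named in the labels is one that does not mark strand, and reads of a gene and of its antisense partner then cannot be told apart. A count of 0 with 3 reads as the limit would mean at most 0.138 CPM counted in the shallowest library. That limit applies to reads assigned to the row and not to Fth1 RNA.

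**Figure D4:**
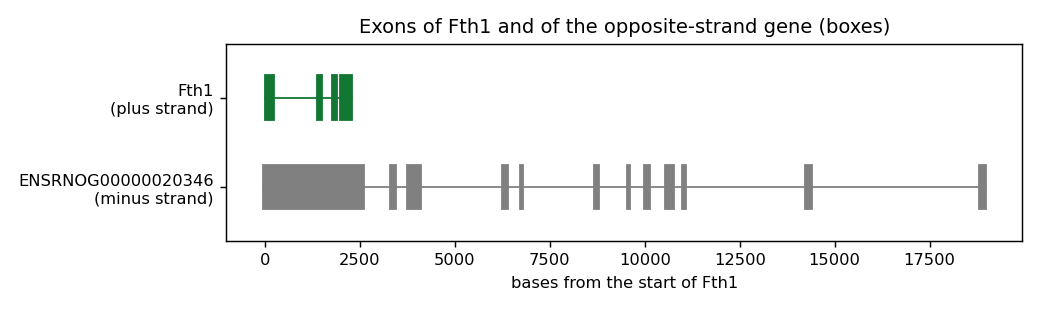
Exons (boxes) of Fth1 on the plus strand and of ENSRNOG00000020346 on the minus strand, by distance in bases from the start of Fth1. The first box of the minus-strand gene reaches from -63 to 2599 and so covers all 4 Fth1 exons.

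The minus-strand gene itself had 10163, 8042 and 6062 counts across controls 1, 2 and 4, and the exposed libraries 13, 14 and 17 had 7346, 5996 and 6469. In CPM these were 482, 253 and 252 in the controls and 335, 229 and 219 in the Mn-exposed libraries. Control 1 stood far above the rest, and the groups overlapped. The log2 fold change was -0.33 (SE 0.31, edgeR adjusted p = 0.767), and without control 1 it was 0.05. With the ID number as a block it was -0.29 (SE 0.12, edgeR adjusted p = 0.377). With control 1 and Mn-exposed 13 both left out it was -0.19. Of its 4501 exonic bases 3671 are outside Fth1. Whether reads on the 830 shared bases entered its counts at all is not stated and was not tested. Its course over the libraries was close to that of Cp, at rank 102 among 15251 genes, since both were highest in control 1 and next in Mn-exposed 13.

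The ID listed for Mt1, ENSRNOG00000038047, is a row of 1 exon and 389 bases on chromosome 17, plus strand, between 78793336 and 78793724. RefSeq places Mt1 on chromosome 19 and also lists a pseudogene, Mt1-ps3, on chromosome 17. That pseudogene is 389 bases long, as is this row, and whether they are the same was not tested. The row had 65, 47 and 47 counts across controls 1, 2 and 4, the exposed libraries 13, 14 and 17 had 88, 50 and 67, and the groups overlapped. Its log2 fold change was 0.33 (SE 0.40, edgeR adjusted p = 0.821). Because reads of near-identical copies may be divided or lost in counting, and the handling of reads with several matches is not given in the sources used here, the values of this row, of Mt2A and of the unnamed neighbour described next are uncertain to that extent.

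RefSeq orders the chromosome 19 cluster as Mt1, Mt2A, Mt3 and Mt4. In the files, a row with no name, ENSRNOG00000025764, lies 5028 bases from Mt2A on the side away from Mt3, from 11302125 to 11302938 on the minus strand, with 348 exonic bases. The files give it no symbol and none is assigned here. It had 120, 123 and 128 counts across controls 1, 2 and 4, and the exposed libraries 13, 14 and 17 had 242, 121 and 205. The CPM were 5.69, 3.87 and 5.32 in the controls and 11.1, 4.62 and 6.92 in the Mn-exposed libraries. Mn-exposed 13 and 17 were above every control, and Mn-exposed 14 lay among the controls. The log2 fold change, 0.60 (SE 0.34), was larger than those of the 4 measured members, and it was not called (edgeR adjusted p = 0.677). The interval ran from 0.875-fold to 2.64-fold. With the ID number as a block its edgeR adjusted p was 0.344, and its unadjusted p fell under 0.05, as did that of 13.9% of all genes tested. Without Mn-exposed 13 the estimate was 0.22, and without Mn-exposed 14 it was 0.87 (edgeR adjusted p = 0.898). On the other side of Mt3, at 13627 bases, the row ENSRNOG00000019004 had 0 counts in 4 libraries, 2 in Mn-exposed 14 and 1 in Mn-exposed 17.

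**Figure D5:**
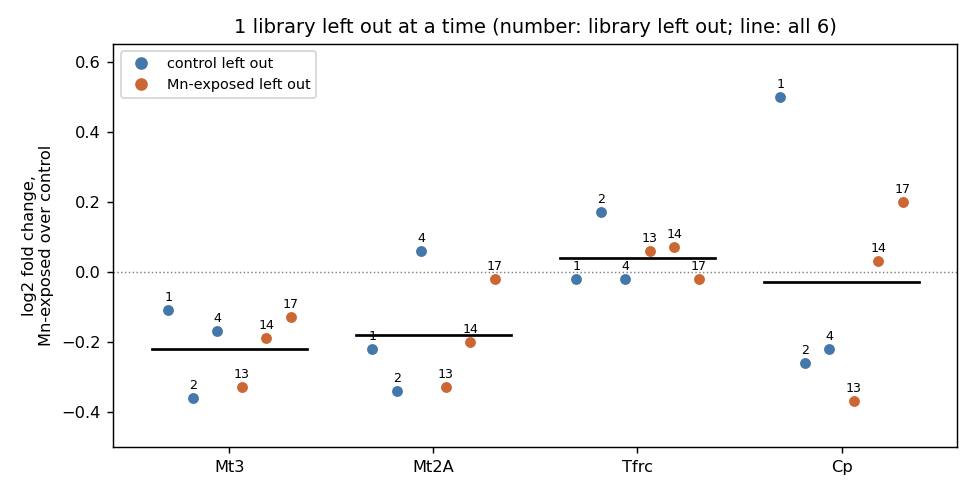
Log2 fold change of each measured gene when 1 library was left out; numbers give the library left out, blue for controls and orange for Mn-exposed, and black lines give the value with all 6. Mt3 stays below 0 in all 6 fits (-0.36 to -0.11), while Mt2A, Tfrc and Cp each lie on both sides of 0.

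Mt3 was below 0 in each of the 16 other fits run, from -0.36 to -0.11, with no adjusted p under 0.448. All these fits reuse the same libraries, so a shared direction is not independent support for a fall. Mt2A changed direction in 1 of its 16, Tfrc in 4 and Cp in 8. None of the 4 genes was called in any of them.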

How the data were processed

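The authors deposited whole-number read counts per Ensembl gene, not normalised, with exon positions, per the file headers. Tools in the submitters' processing notes are STAR 2.5.2b, bcl2fastq 2.17 and DESeq2, and the build is Rnor_6.0. For the counting tool, annotation release, strand setting and treatment of multiply matching reads, the sources used here give nothing. Libraries were made with NEBNext Ultra RNA after poly(A) selection, per the labels' protocols.

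The filter was filterByExpr, the scaling TMM and the test that of edgeR 4.0.16 under R 4.3.3 (robust quasi-likelihood F-test, Benjamini-Hochberg, threshold 0.05). DESeq2 1.42.0, limma-voom (limma 3.58.1), other scalings and filters, counts without mitochondrial features and left-out libraries were alternatives. Intervals are 95%. Rank and distance used log2 CPM with a prior count of 2. The members and lists were chosen with earlier results of these data known. All 6 listed IDs are named whatever they show, and the gene nearest to Mt2A is given by ID. Names come from the listed IDs with their chromosome, since 0 of 32552 IDs matched the RefSeq table. A list of 20 other metal and iron genes and 28 cell type markers, held by symbol, was therefore not analysed here, and the tissue label was not checked against markers. No ratio with Mt1 or Fth1 was formed, since the Mt1 ID failed the chromosome rule and Fth1 had 0 counts.

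ID numbers 1 to 3 are shared by the groups. Deviations from group means correlated at 0.417, 0.109 and 0.227 in same-numbered pairs. Among differently numbered pairs, libraries 2 and 17 reached 0.274 and libraries 4 and 14 reached 0.145. The remaining pairs were negative: -0.296 for 2 and 13, -0.294 for 4 and 13, -0.182 for 1 and 14, and -0.352 for 1 and 17. Deviations from a group mean sum to 0 within the group, which forces some negative values. These correlations do not settle whether the numbers mark pairs, and the labels state no shared litter or batch. The main fit did not use the numbers, which entered as a block in alternative fits only. On simulated counts of the 15252 genes, with 200 changed 2-fold between Mn-exposed and control, edgeR recovered 34% with 0 false calls and DESeq2 55% with 51. With 200 changed 4-fold, edgeR recovered 83% with 15 false calls and DESeq2 86% with 49. The simulated counts were drawn independently for each gene and library, with no shift shared by many genes. The real libraries do share such shifts, so these rates describe the simulated setting and may not hold for them.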

Additional observations from a re-analysis of the deposited data

How the results depend on the processing

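No alternative called Mt2A, Mt3, Tfrc or Cp. Leaving out 1 replicate moved the log2 fold change from -0.36 to -0.11 for Mt3, -0.34 to 0.06 for Mt2A, -0.02 to 0.17 for Tfrc and -0.37 to 0.50 for Cp. Mt2A turned positive without control 4 alone. Cp also turned positive with library size alone (0.07), limma-voom (0.03), the replicate block (0.02), DESeq2 with the replicate block (0.0036) and control 1 and Mn-exposed 13 both left out (0.14), and Tfrc turned to -0.01 in that last fit. The cause was not tested. Of the rows that are not members, ENSRNOG00000038047 ranged from -0.05 (Mn-exposed 13 left out) to 0.67 with 1 replicate left out, and ENSRNOG00000020346 from -0.56 to 0.05 (control 1 left out). Over all genes, edgeR's count of 0 was 0 in each fit with 1 replicate left out, 92 with DESeq2, 291 with DESeq2 and the replicate block, and 58 with control 1 and Mn-exposed 13 both left out. The 1139 genes with an unadjusted p under 0.05 became 2115 with the replicate block, 1713 with DESeq2 and the block, 2692 with both libraries left out, and 576 to 2351 with 1 replicate left out: 678 when control 4, 2351 when Mn-exposed 13 and 576 when Mn-exposed 17 was dropped. With library size alone the median over all genes was 0.12 in place of 0.02, so the 4 genes shifted up by about that much, and genes at that p were 1238 higher and 244 lower in place of 650 and 489. The block changed no call of the 4 genes. DESeq2 with the block and the Mt3 to Mt2A ratio were added after the data were seen, and the difference of that ratio lay between -1.83 and 0.719 with 1 replicate left out. The planned ratios with Mt1 or Fth1 were not run, as neither had a usable count.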
